A study of Mus musculus with 10 samples.

Results

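How the transcriptome of embryonic nephron progenitors differed after 8 days in culture was examined across all genes, by setting cultured cells against freshly sorted cells of the stage at which the cultures began. Samples were taken by their titles. Those of 8-day culture (2 arrays) and of E11.5 progenitors (2 arrays) made up 4 of the 10 samples in the series, each hybridised to a single-colour Agilent mouse array. All the mice carried a Six2-GFP transgene on a C57BL6J/ICR background. The 8-day culture held Six2-positive cells sorted at E11.5 and kept in conditioned medium for 8 days, and E11.5 progenitors were Six2-GFP-positive cells sorted at the same stage and not cultured. For time and age, 19-day culture (2 arrays) and P0 progenitors (2 arrays), which were Six2-GFP-positive cells sorted at birth, are used below. The reporter marks cells by Six2 regulation, so the sort and the gene Six2 are not independent. The labels do not say what conditioned the medium, whether cultured cells were sorted again before lysis, or whether the 2 arrays of a group came from separate litters or cultures. The p-values may therefore measure technical spread alone.

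Nephron progenitors form a cap of mesenchyme around the ureteric bud tips of the embryonic kidney. Six2 holds them undifferentiated, while Pax2, Sall1, Wt1 and Osr1 give the lineage its identity, and the cap signals to the bud through Gdnf and receives FGF, BMP and Wnt signals. Outside the embryo these cells lack the bud and the stroma, and what they receive depends on the medium.

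A level here is the log2 intensity of a gene's probe minus the 75th percentile of its array, so that 0 is the upper quartile of that array. Levels of different genes come from different probes and are not compared. A log2 change is 8-day culture minus E11.5 progenitors, and a gene passed at an adjusted p under 0.05 (limma, Benjamini-Hochberg over 26253 genes, n = 2 arrays each). Of these genes 1261 passed, 4.8% of those tested: 725 were higher (2.76%) and 536 were lower (2.04%) in 8-day culture. Counts of higher and lower members of each list below stand against these 2 shares, also where the shares are not repeated. The median log2 change over all genes was 0.02. Levels of replicates differed by a root mean square of 1.08 in 8-day culture and 1.22 in E11.5 progenitors, against 1.41 between the groups. The fit pools the spread of all 10 arrays, and with the 4 arrays alone 0 genes passed while 3950 had an unadjusted p under 0.05. In bulk RNA, fewer cells of a type and less RNA per cell cannot be told apart.

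**Figure D1:**
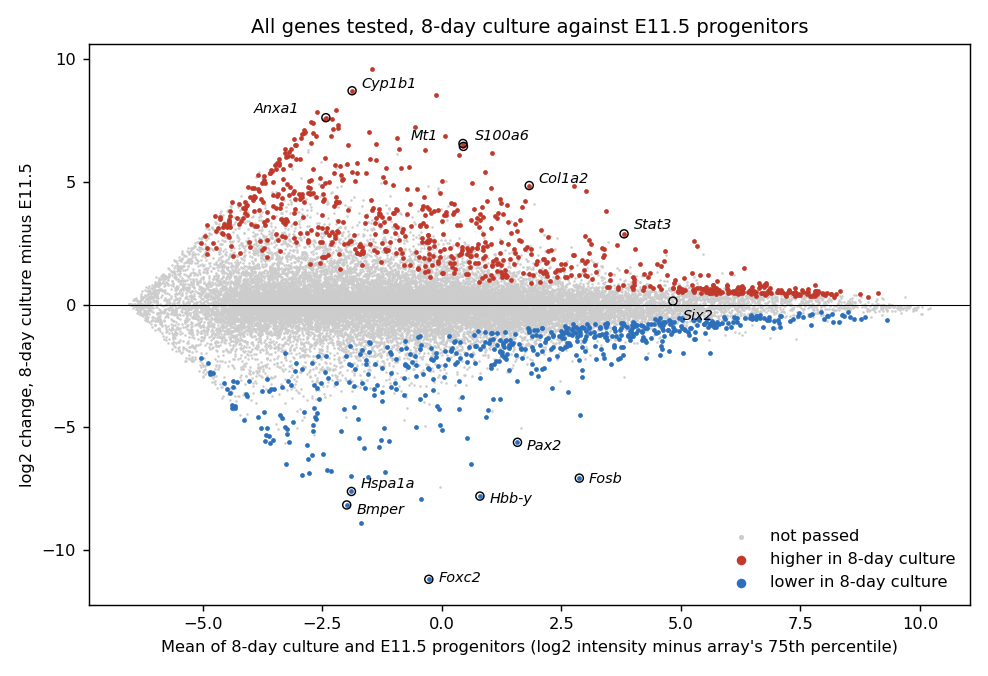
Log2 change (8-day culture minus E11.5 progenitors, vertical axis) of each of the 26253 genes tested against its mean level (log2 intensity minus the array's 75th percentile, horizontal axis), with red points higher and blue points lower at an adjusted p under 0.05. Six2 lies at 0.15, among genes that did not pass, while Foxc2, Fosb and Pax2 lie far below 0 and Cyp1b1, Mt1 and S100a6 far above it.

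Six2 did not differ beyond its spread. It read 5.21 and 4.61 in 8-day culture, against 4.70 and 4.82 in E11.5 progenitors, and the values of the groups overlapped (log2 change 0.15 ± 0.71 SE, adjusted p = 0.945). Osr1, an early intermediate mesoderm factor, read 2.85 and 1.80 in 8-day culture, against 1.33 and 2.83 in E11.5 progenitors and overlapped as well (adjusted p = 0.904). Wt1, a zinc finger factor needed for survival of the mesenchyme, read 5.30 and 4.61 in 8-day culture, against 4.91 and 5.03 in E11.5 progenitors (adjusted p = 0.989). Other progenitor factors differed, as given next. The probes annotated to Eya1 and Lhx1 were flat over all groups and are not interpreted.

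Of 27 transcription factors of nephron progenitors 7 were lower and 1 was higher in culture, set beside 2.04% and 2.76% of all genes. Pax2, without which the kidney does not form, read -1.40 and -1.04 in 8-day culture, against 4.56 and 4.21 in E11.5 progenitors, with no overlap and a fall of 48.7-fold (log2 change -5.60 ± 0.23 SE, adjusted p = 0.000177). Its probe spans chromosome 19 from 44909895 to 44909954 (mm9), and its other probes were also lower, with changes of -4.46 and -3.42. Meox1, a homeobox gene of the nephron progenitor pool, read -2.40 and -2.87 in 8-day culture, against 3.70 and 3.98 in E11.5 progenitors, again without overlap (log2 change -6.47 ± 0.44 SE, adjusted p = 0.00134). Foxc2, a forkhead factor of early nephrogenic mesenchyme, read -5.36 and -6.38 in 8-day culture, against 5.0 and 5.64 in E11.5 progenitors, and in 8-day culture it was not well above background on either array. It was at least 734-fold lower (adjusted p = 0.00146), and its paralog Foxc1 read 0.71 and 0.23 in 8-day culture, against 1.90 and 2.32 in E11.5 progenitors (log2 change -1.64 ± 0.27 SE, adjusted p = 0.0234). Cited2, a transcriptional co-regulator, read 4.14 and 3.87 in 8-day culture, against 5.33 and 5.25 in E11.5 progenitors (log2 change -1.28 ± 0.19 SE, adjusted p = 0.0157).

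The 2 lower members not yet named, Sall2 (-0.95) and Dach1 (-0.96), were picked out after their values were seen. The median log2 change over the list was -0.56, against 0.02 over all genes. Groups did not overlap, with culture lower, for 14 of the 27 (21% of all genes) and, with culture higher, for 2 (24.5% of all genes).

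Cited1, a marker of the uninduced cap, read 0.56 and 1.68 in 8-day culture, against 3.00 and 3.64 in E11.5 progenitors and did not pass (log2 change -2.20 ± 0.53 SE, adjusted p = 0.0621). Sall1, the co-factor of Six2, read 1.71 and 2.09 in 8-day culture, against 3.85 and 4.36 in E11.5 progenitors (log2 change -2.20, adjusted p = 0.140). The fit pools the spread of all arrays, and Sall1 read -2.90 and -0.27 in 19-day culture. Gdnf, the ligand that draws the ureteric bud, read -6.34 and -2.43 in 8-day culture, against -1.42 and -0.38 in E11.5 progenitors (adjusted p = 0.154). For all 3 the 2 cultured arrays lay below both fresh ones, a separation that 21% of all genes showed. Calls of Pax2, Meox1 and Foxc2 held when each of the 4 arrays was left out in turn, whereas Cited2 was lost without 8-day culture replicate 2 or E11.5 progenitors replicate 1 (highest adjusted p = 0.0582) and Foxc1 without 8-day culture replicate 2 or E11.5 progenitors replicate 2 (highest adjusted p = 0.0746). Slides held unequal shares of the groups, with 8-day culture replicate 2 on the second slide and the other 3 arrays on the first. Lower members of the list numbered 5 and 3 without 8-day culture replicates 1 and 2, and 4 and 5 without E11.5 progenitors replicates 1 and 2. Within the first slide Pax2 (log2 change -5.79), Meox1 (-6.24) and Foxc2 passed, and 5 list members were lower and 1 was higher.

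**Figure D2:**
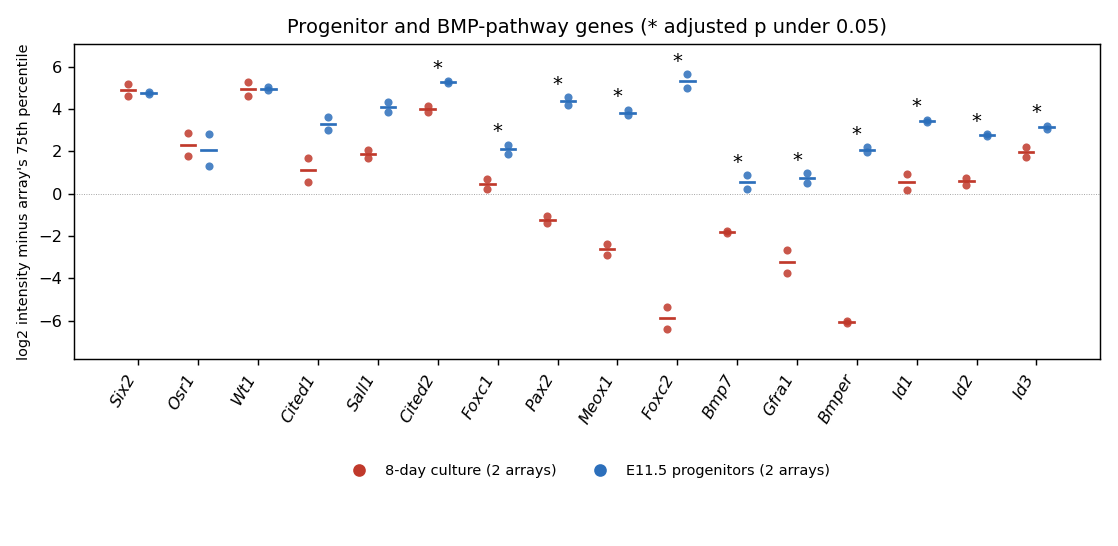
Levels of progenitor and BMP-pathway genes (log2 intensity minus the array's 75th percentile), with each array as a point, group means as bars, 8-day culture in red to the left of E11.5 progenitors in blue, and stars at an adjusted p under 0.05. Six2, Osr1 and Wt1 overlap between groups, and Pax2, Meox1 and Foxc2 are lower without overlap.

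Of 18 measured genes of BMP signalling 5 were lower and 0 higher in culture, beside 2.04% and 2.76% of all genes. The median log2 change was -0.86. Id1, Id2 and Id3, which encode inhibitors of basic helix-loop-helix factors and are direct BMP targets, passed together with Bmp7 and Bmper. Id1 read 0.95 and 0.17 in 8-day culture, against 3.39 and 3.5 in E11.5 progenitors (log2 change -2.89 ± 0.31 SE, adjusted p = 0.00557). Id2 read 0.42 and 0.77 in 8-day culture, against 2.71 and 2.80 in E11.5 progenitors (log2 change -2.16 ± 0.24 SE, adjusted p = 0.00656). Neither overlapped between groups. Bmp7, the BMP ligand made by the cap itself, read -1.84 and -1.74 in 8-day culture, against 0.88 and 0.22 in E11.5 progenitors (log2 change -2.34 ± 0.39 SE, adjusted p = 0.0226). Bmper, which binds BMPs outside the cell, was not well above background in culture, at -6.03 and -6.11 in 8-day culture, against 2.20 and 1.98 in E11.5 progenitors, and was at least 78.0-fold lower (adjusted p = 0.00358). Among members that did not pass, the ligand Bmp4 read 1.41 and 2.86 in 8-day culture, against 1.63 and 0.89 in E11.5 progenitors, and the receptor Bmpr1a 3.04 and 2.99 in 8-day culture, against 2.92 and 3.12 in E11.5 progenitors. Bmp7 was lost without 8-day culture replicate 1, 8-day culture replicate 2 or E11.5 progenitors replicate 1 (highest adjusted p = 0.0802) and Id3 without each of the 4 arrays in turn (highest adjusted p = 0.123), while Id1, Id2 and Bmper kept their calls in all 4 such fits. Lower BMP genes numbered 3 and 4 without 8-day culture replicates 1 and 2, and 3 and 4 without E11.5 progenitors replicates 1 and 2. Within the first slide 5 members were lower.

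Gfra1, the co-receptor for Gdnf, read -3.76 and -2.67 in 8-day culture, against 0.49 and 0.96 in E11.5 progenitors, 15.3-fold lower in culture with no overlap (log2 change -3.94 ± 0.47 SE, adjusted p = 0.00852). Plac8, a small cysteine-rich protein, went the other way at 0.44 and 0.50 in 8-day culture, against -2.51 and -3.30 in E11.5 progenitors (log2 change 3.37 ± 0.37 SE, adjusted p = 0.00559). These belong to a list of 25 surface and secreted genes of progenitors, of which 3 were lower, 1 was higher and the median log2 change was 0.01. Of 14 members of the FGF and ERK feedback list, Dusp6, a phosphatase that restrains ERK, was the only one to pass, at 6.02 and 6.13 in 8-day culture, against 5.42 and 5.09 in E11.5 progenitors (log2 change 0.82 ± 0.14 SE, adjusted p = 0.0265). It was lost without 8-day culture replicate 1, 8-day culture replicate 2 or E11.5 progenitors replicate 2 (highest adjusted p = 0.0885). The FGF-responsive factors Etv4 (0.33) and Etv5 (-0.35) and the receptor Fgfr1 (0.02) did not pass, and the sign of Fgfr1 depended on how its probes were combined.

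Immediate early genes are switched on within minutes of a stimulus. Of 27 members 5 were lower and 0 higher in culture, beside 2.04% of all genes lower, with a median log2 change of -1.58. Fosb, a subunit of the AP-1 transcription factor, read -0.90 and -0.41 in 8-day culture, against 6.75 and 6.07 in E11.5 progenitors, a fall of 134-fold with no overlap (log2 change -7.06 ± 0.84 SE, adjusted p = 0.00840). Jun, its usual partner, read -1.98 and -0.94 in 8-day culture, against 2.22 and 2.39 in E11.5 progenitors (log2 change -3.76 ± 0.34 SE, adjusted p = 0.00358). Fos read 1.92 and -0.62 in 8-day culture, against 5.52 and 4.73 in E11.5 progenitors (log2 change -4.47 ± 0.79 SE, adjusted p = 0.0269), and Nr4a3, an orphan nuclear receptor, was at least 8.35-fold lower (adjusted p = 0.0194). Ccn1, a secreted matrix protein that responds to serum and to YAP, read -0.84 and -0.60 in 8-day culture, against 2.97 and 3.29 in E11.5 progenitors (log2 change -3.86 ± 0.47 SE, adjusted p = 0.00894). Not all members moved alike. Egr1, a zinc finger factor of the same class, read 7.0 and 5.39 in 8-day culture, against 7.57 and 7.49 in E11.5 progenitors (adjusted p = 0.157), and Dusp1 read 3.11 and 1.47 in 8-day culture, against 4.71 and 4.77 in E11.5 progenitors (adjusted p = 0.0817). Lower immediate early genes numbered 5 and 3 without 8-day culture replicates 1 and 2, and 4 and 4 without E11.5 progenitors replicates 1 and 2, and 6 were lower within the first slide. Fos was lost without 8-day culture replicate 2, E11.5 progenitors replicate 1 or E11.5 progenitors replicate 2 (highest adjusted p = 0.0862), Nr4a3 without 8-day culture replicate 1 or 8-day culture replicate 2 (highest adjusted p = 0.0726) and Ccn1 without 8-day culture replicate 1 (adjusted p = 0.0519).

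Of 19 heat shock and chaperone genes 5 were lower and 0 higher, with a median of -0.70. Hspa1a, the inducible Hsp70, was not well above background in culture, at -4.79 and -6.60 in 8-day culture, against 2.62 and 1.21 in E11.5 progenitors, and was at least 69.1-fold lower (adjusted p = 0.00546). It has a near-identical neighbour, Hspa1b, so its probe need not report 1 gene. Hsp90aa1, the inducible Hsp90, read 4.30 and 4.44 in 8-day culture, against 5.37 and 5.41 in E11.5 progenitors (log2 change -1.02 ± 0.12 SE, adjusted p = 0.00889), while Hsp90ab1, its constitutive relative, read 8.04 and 8.08 in 8-day culture, against 7.94 and 8.10 in E11.5 progenitors and overlapped (adjusted p = 0.850). Hsph1, an Hsp70 co-chaperone (-1.69), Hspa8, the constitutive Hsp70 (-0.70), and Hspe1, a mitochondrial co-chaperonin (-0.62), also passed as lower. With 1 array left out, 2 and 3 members were lower without 8-day culture replicates 1 and 2, and 2 and 3 without E11.5 progenitors replicates 1 and 2. Hsph1 and Hspa8 lost their calls in each of those 4 fits and Hspe1 in 3 of them. Cell sorting preceded RNA isolation in the fresh samples, and whether it preceded it in the cultured ones is not stated, so the part of handling in these genes cannot be told apart from culture.

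Of 27 genes of glycolysis and the hypoxia response 11 were higher and 0 lower in culture, beside 2.76% and 2.04% of all genes, with a median log2 change of 1.08. Promoters of 3 of them are shown, since such genes are known to carry a response element. Low oxygen stabilises HIF factors, which bind a short core in DNA of their targets, not always in the promoter. Among the targets are Pgk1, a glycolytic enzyme, Egln3, a prolyl hydroxylase, and Bnip3, a mitophagy receptor. Whether the matches printed here are the bound elements was not tested. The promoters are printed from RefSeq on GRCm38.p6, as the 250 bases before the annotated start, in the gene's own direction from 5′ to 3′. Capitals mark ACGTG or GCGTG on either strand.
Pgk1 is at chrX:106186850-106187099 on the plus strand, Bnip3 at chr7:138909507-138909756 on the minus strand and Egln3 at chr12:54203875-54204124 on the minus strand.
Pgk1: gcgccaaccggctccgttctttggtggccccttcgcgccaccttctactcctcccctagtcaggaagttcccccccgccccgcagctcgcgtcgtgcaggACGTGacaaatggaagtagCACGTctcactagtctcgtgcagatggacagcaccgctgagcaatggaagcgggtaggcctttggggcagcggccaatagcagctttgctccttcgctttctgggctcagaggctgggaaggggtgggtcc
Bnip3: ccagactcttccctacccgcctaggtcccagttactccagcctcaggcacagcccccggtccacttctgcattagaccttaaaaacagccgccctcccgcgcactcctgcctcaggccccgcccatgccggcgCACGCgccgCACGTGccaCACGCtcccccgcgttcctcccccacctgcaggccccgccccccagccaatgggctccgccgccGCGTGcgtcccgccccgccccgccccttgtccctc
Egln3: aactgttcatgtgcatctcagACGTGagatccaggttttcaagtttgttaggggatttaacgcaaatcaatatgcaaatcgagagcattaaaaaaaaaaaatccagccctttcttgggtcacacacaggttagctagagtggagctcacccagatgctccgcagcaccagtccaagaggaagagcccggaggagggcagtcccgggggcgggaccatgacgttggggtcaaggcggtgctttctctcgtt
The core was found 2 times in Pgk1, 5 times in Bnip3 and 1 time in Egln3. In Bnip3 the stretch CACGTG matches on each strand and is counted for both. Of the list's members with a promoter entry, 22 of 25 held a core, and so did 41.5% of all 27025 genes with an entry (38.6% of 32851 promoters of this length). Among the 9 called members with an entry the core was found in 6, Aldoc, Bnip3, Car9, Egln3, Hk1 and Pgk1. A match is a string of letters and shows no binding. The heat shock element, searched in the same way, was found in 2 of 13 heat shock genes with an entry (0.514% of all genes), the STAT element in 1 of 15 genes of the LIF and STAT3 axis (8.13%) and the CArG box in 2 of 24 immediate early genes (1.62%).

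Ndrg1, a hypoxia-induced gene, read 2.01 and 1.5 in 8-day culture, against -1.81 and -2.36 in E11.5 progenitors, with no overlap (log2 change 3.84 ± 0.38 SE, adjusted p = 0.00445). Aldoc, an aldolase, read 3.05 and 1.45 in 8-day culture, against -2.09 and -2.53 in E11.5 progenitors (log2 change 4.56 ± 0.55 SE, adjusted p = 0.00840). Slc2a3, the glucose transporter Glut3, read 1.90 and 0.95 in 8-day culture, against -6.22 and -5.30 in E11.5 progenitors and was at least 50.2-fold higher (adjusted p = 0.00976). All 3 lay below the upper quartile of the array in fresh cells and above it in culture. Pgk1, phosphoglycerate kinase, read 7.09 and 7.35 in 8-day culture, against 6.36 and 6.29 in E11.5 progenitors (log2 change 0.90 ± 0.12 SE, adjusted p = 0.0137). Tpi1, triose phosphate isomerase, read 6.04 and 5.73 in 8-day culture, against 4.43 and 4.72 in E11.5 progenitors (log2 change 1.31 ± 0.16 SE, adjusted p = 0.00889). Eno2, an enolase, read 1.52 and 0.80 in 8-day culture, against -2.13 and -2.0 in E11.5 progenitors (log2 change 3.22 ± 0.50 SE, adjusted p = 0.0191). The groups did not overlap for these 3 enzymes either.

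Gapdh read 7.59 and 7.53 in 8-day culture, against 7.56 and 7.68 in E11.5 progenitors and overlapped (adjusted p = 0.805), and so did Ldha, lactate dehydrogenase, at 7.33 and 7.14 in 8-day culture, against 7.21 and 7.20 in E11.5 progenitors (adjusted p = 0.920). Groups did not overlap, with culture higher, for 21 of 27, beside 24.5% of all genes. The remaining members that passed, Egln3 (6.54), Car9, a carbonic anhydrase (2.23), Bnip3 (1.66), Gpi1 (1.08) and Hk1 (0.54), were picked out after their values were seen. In fits without 1 array, the number of members called higher was 4 and 7 without 8-day culture replicates 1 and 2, and 5 and 9 without E11.5 progenitors replicates 1 and 2. Within the first slide 6 were. Slc2a3 was lost without 8-day culture replicate 1 (adjusted p = 0.0561) and Eno2 without 8-day culture replicate 1 or E11.5 progenitors replicate 1 (highest adjusted p = 0.0775).

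**Figure D3:**
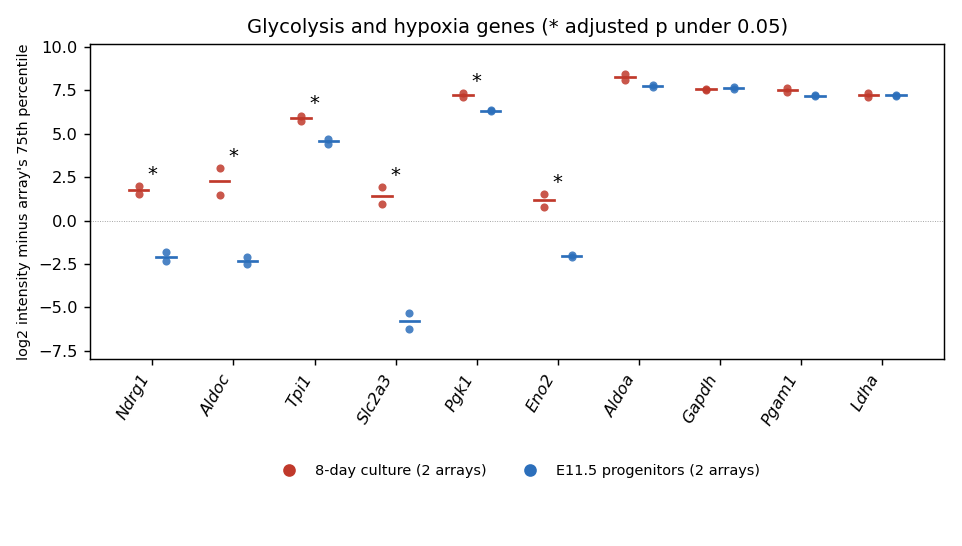
Levels of glycolysis and hypoxia genes (log2 intensity minus the array's 75th percentile), with arrays as points, group means as bars, 8-day culture in red to the left of E11.5 progenitors in blue, and stars at an adjusted p under 0.05. The starred genes separate fully, whereas Gapdh and Ldha overlap.

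Of 29 genes of amino acid and endoplasmic reticulum stress 4 were higher and 0 lower, beside 2.76% and 2.04% of all genes. Members lay on both sides. Groups did not overlap, with culture higher, for 14 (24.5% of all genes) and, with culture lower, for 9 (21% of all genes). Ddit4, an mTOR inhibitor induced by stress and low oxygen, read 6.65 and 6.49 in 8-day culture, against 4.32 and 3.60 in E11.5 progenitors (log2 change 2.61 ± 0.35 SE, adjusted p = 0.0120), and Vldlr, a lipoprotein receptor, read 3.47 and 2.19 in 8-day culture, against -0.72 and -1.59 in E11.5 progenitors (log2 change 3.99 ± 0.66 SE, adjusted p = 0.0226). Atf5, a factor of the same response (1.29), and Stc2, a secreted glycoprotein (at least 4.997-fold higher), passed with them. Atf4, the factor at the centre of that response, read 6.02 and 5.11 in 8-day culture, against 6.63 and 6.73 in E11.5 progenitors and did not pass (log2 change -1.11 ± 0.29 SE, adjusted p = 0.0803). Ddit4 was lost without 8-day culture replicate 1 (adjusted p = 0.0597), Vldlr without 8-day culture replicate 1 or E11.5 progenitors replicate 2 (highest adjusted p = 0.0862), Stc2 without 8-day culture replicate 2 (adjusted p = 0.0527) and Atf5 without each of the 4 arrays in turn (highest adjusted p = 0.0776). Higher stress genes numbered 1 and 2 without 8-day culture replicates 1 and 2, and 4 and 2 without E11.5 progenitors replicates 1 and 2. Of 31 genes of cholesterol and fatty acid synthesis, Scd2 (0.98) and Sc5d (2.07) were higher, both lost in each of the 4 fits without 1 array.

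Of 27 collagens 9 were higher and 2 lower in culture, with a median log2 change of 0.84. With normexp background correction the median was 0.15, with 8 higher and 2 lower. With a floor at the lowest signal well above background it was 0.86. Col1a2, a chain of fibrillar collagen I, read 4.92 and 3.59 in 8-day culture, against -0.94 and -0.27 in E11.5 progenitors (log2 change 4.86 ± 0.50 SE, adjusted p = 0.00499). Col3a1, collagen III of soft connective tissue, read 3.72 and 3.01 in 8-day culture, against -1.1 and -0.76 in E11.5 progenitors (log2 change 4.29 ± 0.33 SE, adjusted p = 0.00196). Col1a1 read 2.10 and 1.90 in 8-day culture, against -1.0 and -1.51 in E11.5 progenitors (log2 change 3.26 ± 0.36 SE, adjusted p = 0.00642). None of the 3 overlapped, and each stayed past the threshold without any 1 array. Col4a2, a basement membrane chain, read 3.01 and 2.85 in 8-day culture, against 0.21 and 0.37 in E11.5 progenitors (log2 change 2.64 ± 0.19 SE, adjusted p = 0.00146), and Col6a3, a microfibril chain, was at least 21.2-fold higher (adjusted p = 0.00167). Higher collagens numbered 6 and 9 without 8-day culture replicates 1 and 2, and 6 and 8 without E11.5 progenitors replicates 1 and 2, and lower ones numbered 0 and 1 without 8-day culture replicates 1 and 2, and 1 and 1 without E11.5 progenitors replicates 1 and 2. Within the first slide 7 were higher and 1 lower. The lower collagens, picked out after their values were seen, were the cartilage collagens Col9a1 (-6.98) and Col2a1 (-2.05).

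Of 33 matrix proteins and cross-linkers 7 were higher and 0 lower, with a median of 1.61. Culture lay above fresh cells without overlap for 21 of them, beside 24.5% of all genes. The list median was 0.59 with normexp background correction (6 higher) and 0.90 with a floor at the lowest signal well above background (8 higher). Lox, which cross-links collagen and elastin, read 3.97 and 2.83 in 8-day culture, against -1.92 and -3.46 in E11.5 progenitors (log2 change 6.09 ± 0.73 SE, adjusted p = 0.00840). Bgn, a small proteoglycan, read 0.81 and 0.82 in 8-day culture, against -4.66 and -4.50 in E11.5 progenitors, at least 32.7-fold higher (adjusted p = 0.000841), and Postn, a matricellular protein of mesenchyme, was at least 4.59-fold higher (adjusted p = 0.00840). Pcolce, which speeds procollagen processing, read 3.09 and 3.14 in 8-day culture, against -0.44 and -3.26 in E11.5 progenitors (log2 change 4.97 ± 0.80 SE, adjusted p = 0.0215). In the 4 fits that each lacked an array, the number of members called higher was 3 and 6 without 8-day culture replicates 1 and 2, and 9 and 7 without E11.5 progenitors replicates 1 and 2. Pcolce was lost without 8-day culture replicate 1 or 8-day culture replicate 2 (highest adjusted p = 0.0773), Plod2 without 8-day culture replicate 1 (adjusted p = 0.0581) and Sparc without 8-day culture replicate 1 or E11.5 progenitors replicate 1 (highest adjusted p = 0.0821).

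Of 24 matrix proteases and inhibitors 6 were higher and 0 lower, with a median of 1.36. With normexp background correction 4 were higher, with a median of 0.67. With a floor at the lowest signal well above background the median was 1.34. Plau, urokinase, was at least 15.7-fold higher (adjusted p = 0.00559) with levels of -0.54 and 0.03 in 8-day culture, against -6.28 and -6.28 in E11.5 progenitors. Mmp9, a gelatinase, read 3.55 and -0.96 in 8-day culture, against -6.07 and -5.66 in E11.5 progenitors, so the cultured arrays differed more from each other than most, and it was lost without 8-day culture replicate 1, E11.5 progenitors replicate 1 or E11.5 progenitors replicate 2 (highest adjusted p = 0.0891). With 1 array left out, 1 and 6 members were higher without 8-day culture replicates 1 and 2, and 3 and 2 without E11.5 progenitors replicates 1 and 2. Lama4, a laminin chain, read 3.93 and 2.91 in 8-day culture, against -0.63 and -2.06 in E11.5 progenitors (log2 change 4.77 ± 0.57 SE, adjusted p = 0.00840), and 3 of 25 integrins and laminins were higher, 0 lower. Higher integrins and laminins numbered 1 and 1 without 8-day culture replicates 1 and 2, and 1 and 2 without E11.5 progenitors replicates 1 and 2.

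Of 30 actin cytoskeleton, YAP and SRF genes 5 were higher and 1, Ccn1, was lower. Vim, the intermediate filament of mesenchyme, read 4.95 and 4.84 in 8-day culture, against 2.71 and 2.19 in E11.5 progenitors (log2 change 2.45 ± 0.21 SE, adjusted p = 0.00295). Cald1, an actin-binding regulator of contraction, read 2.42 and 2.29 in 8-day culture, against 0.49 and 0.87 in E11.5 progenitors (log2 change 1.67 ± 0.21 SE, adjusted p = 0.00973). Anxa1, an annexin, was at background in fresh cells, at 0.93 and 1.85 in 8-day culture, against -6.25 and -6.23 in E11.5 progenitors, and at least 48.8-fold higher (adjusted p = 0.000525). Acta2, smooth muscle actin, read 0.63 and 1.14 in 8-day culture, against -2.74 and -3.0 in E11.5 progenitors (log2 change 3.76 ± 0.64 SE, adjusted p = 0.0246) and was lost without each of the 4 arrays in turn (highest adjusted p = 0.0903). Tpm1, a tropomyosin, passed (1.40), but its call was lost without 8-day culture replicate 1, E11.5 progenitors replicate 1 or E11.5 progenitors replicate 2 (highest adjusted p = 0.105) and its sign also depended on how its probes were combined. Of 11 transcription factors of mesenchymal transition 0 passed in limma and 5 had an unadjusted p under 0.05, with a median of 0.75. Snai2 read 4.02 and 3.67 in 8-day culture, against 3.15 and 2.52 in E11.5 progenitors (adjusted p = 0.162) and Zeb1 4.04 and 4.17 in 8-day culture, against 4.29 and 3.85 in E11.5 progenitors (adjusted p = 0.978).

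Of 20 genes of the LIF and STAT3 axis, through which cytokines of the interleukin 6 family act, 5 were higher and 0 lower. Fitted changes were positive for 11 members and negative for 9, with a median of 1.32. That median depended on signals near background. It was 0.11 with normexp background correction and 0.49 with a floor at the lowest signal well above background. With no filter on dim probes it was 0.80 over 22 genes (4 higher, 0 lower). For the 10 members well above background on all 10 arrays it was -0.03, with 3 higher and 0 lower. Stat3, the transcription factor, read 5.62 and 4.89 in 8-day culture, against 2.55 and 2.19 in E11.5 progenitors without overlap (log2 change 2.89 ± 0.28 SE, adjusted p = 0.00415). Il6st, the shared receptor gp130, read 3.33 and 2.54 in 8-day culture, against 0.40 and 0.31 in E11.5 progenitors (log2 change 2.58 ± 0.36 SE, adjusted p = 0.0137). Bcl3, a STAT3 target and NF-kappaB co-factor, read 2.35 and 0.81 in 8-day culture, against -4.60 and -4.07 in E11.5 progenitors (log2 change 5.92 ± 0.54 SE, adjusted p = 0.00386), and was well above background on 1 of the 2 fresh arrays. Lifr, the LIF receptor itself, read 2.44 and 1.83 in 8-day culture, against 2.90 and 3.55 in E11.5 progenitors and did not pass (adjusted p = 0.115), and Socs3, the feedback inhibitor, read 3.47 and 2.74 in 8-day culture, against 1.15 and 1.52 in E11.5 progenitors (adjusted p = 0.0527). Stat3 and Bcl3 held without any 1 array, while Il6st was lost without 8-day culture replicate 1 (adjusted p = 0.0581), Socs2 without each of the 4 arrays in turn (highest adjusted p = 0.118) and Osmr without each of the 4 arrays in turn (highest adjusted p = 0.182). Higher members numbered 2 and 3 without 8-day culture replicates 1 and 2, and 3 and 3 without E11.5 progenitors replicates 1 and 2. Within the first slide 4 were higher and 1 was lower.

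Of 29 interferon-responsive genes 4 were higher and 0 lower, with a median of 1.96. The promoter of B2m, the light chain of MHC class I, is shown because it holds the interferon-stimulated response element core, GAAA and GAAA with 2 bases of any kind between them on either strand, here in capitals. It lies at chr2:122147437-122147686 on the plus strand (RefSeq, GRCm38.p6).
B2m: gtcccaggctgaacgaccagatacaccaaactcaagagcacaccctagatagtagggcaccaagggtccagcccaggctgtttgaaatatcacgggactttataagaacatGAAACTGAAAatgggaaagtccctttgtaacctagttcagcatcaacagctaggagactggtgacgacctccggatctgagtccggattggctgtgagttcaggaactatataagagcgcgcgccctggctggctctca
The core was found in 11 of 25 list members with a promoter entry and in 3.46% of all genes with an entry (2.98% of promoters of this length). B2m read 3.47 and 2.62 in 8-day culture, against -0.39 and -1.02 in E11.5 progenitors, 13.5-fold higher with no overlap (log2 change 3.75 ± 0.54 SE, adjusted p = 0.0153). Ifitm3, a membrane protein that blocks virus entry, read 6.53 and 4.14 in 8-day culture, against 0.87 and 0.50 in E11.5 progenitors (log2 change 4.66 ± 0.66 SE, adjusted p = 0.0137). Irf1 (3.88) and Bst2 (1.27) were the other members that passed. Culture lay above fresh cells without overlap for 18 of 29, beside 24.5% of all genes. The MHC heavy chains H2-K1, at 3.74 and 3.27 in 8-day culture, against 1.27 and 1.18 in E11.5 progenitors (adjusted p = 0.168), and H2-D1, at 1.92 and 1.76 in 8-day culture, against -2.04 and -1.17 in E11.5 progenitors (adjusted p = 0.127), separated but did not pass. B2m was lost without 8-day culture replicate 1 (adjusted p = 0.0692), and Irf1 and Bst2 in each of the 4 fits without 1 array. Higher interferon-responsive genes numbered 1 and 3 without 8-day culture replicates 1 and 2, and 2 and 2 without E11.5 progenitors replicates 1 and 2, and 8 were higher within the first slide. The list median ran between 1.16 and 2.80 over the fits without 1 array. It was 0.81 with normexp background correction and 1.37 with a floor at the lowest signal well above background, with 4 higher and 0 lower in each.

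Of 20 chemokines and cytokines 2 were higher and 1 lower. On the array were 26, and a gene could pass the filter on dim probes through the cultured arrays alone. With no such filter 1 of 26 was higher and 1 lower. With a floor at the lowest signal well above background 1 of 20 was higher and 1 lower. Il33, an alarmin, read 2.93 and 3.20 in 8-day culture, against -1.64 and -0.72 in E11.5 progenitors (log2 change 4.24 ± 0.45 SE, adjusted p = 0.00553), and Csf1, the macrophage growth factor, was at least 9.92-fold higher (adjusted p = 0.0399). Cxcl12, the stromal chemokine, was lower, at 2.19 and 2.65 in 8-day culture, against 4.12 and 4.33 in E11.5 progenitors (log2 change -1.81 ± 0.22 SE, adjusted p = 0.00910). Csf1 was lost without E11.5 progenitors replicate 1 or E11.5 progenitors replicate 2 (highest adjusted p = 0.107). Cxcl5 and Cxcl1 differed widely between the cultured arrays, at 6.41 and 2.13 in 8-day culture, against -2.19 and -2.67 in E11.5 progenitors for Cxcl5 (adjusted p = 0.0649) and 5.42 and 0.86 in 8-day culture, against 0.56 and -1.09 in E11.5 progenitors for Cxcl1 (adjusted p = 0.313).

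Of 15 retinoic acid genes 2 were higher and 4 lower, beside 2.76% and 2.04% of all genes. Aldh1a3, a retinaldehyde dehydrogenase, was at background in fresh cells, at 2.00 and 1.98 in 8-day culture, against -4.83 and -5.28 in E11.5 progenitors, and at least 74.0-fold higher (adjusted p = 0.000739). Stra6, the receptor that takes up retinol, read -4.01 and -5.06 in 8-day culture, against 1.17 and 1.43 in E11.5 progenitors, at least 44.6-fold lower (adjusted p = 0.00395). Rdh10, which oxidises retinol, read 2.18 and 2.41 in 8-day culture, against 4.54 and 4.42 in E11.5 progenitors (log2 change -2.18 ± 0.29 SE, adjusted p = 0.0115). Rarg, a retinoic acid receptor, was at least 8.29-fold higher (adjusted p = 0.00559), and Dhrs3, a retinaldehyde reductase (-5.55, well above background on 1 of the 2 cultured arrays), was lower. Aldh1a2, the isoform of embryonic mesoderm, read 5.68 and 5.06 in 8-day culture, against 4.34 and 4.73 in E11.5 progenitors (adjusted p = 0.107). Rdh10 was lost without 8-day culture replicate 1 (adjusted p = 0.0579) and Dhrs3 without 8-day culture replicate 1, E11.5 progenitors replicate 1 or E11.5 progenitors replicate 2 (highest adjusted p = 0.0861). Lower retinoic acid genes numbered 1 and 3 without 8-day culture replicates 1 and 2, and 2 and 2 without E11.5 progenitors replicates 1 and 2.

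Of 15 metallothionein and zinc transport genes 2 were higher, of 17 aryl hydrocarbon and oxidative stress genes 3, and of 13 S100 genes 2, with 0 lower in each list. With no filter on dim probes, 1 of 16, 2 of 21 and 2 of 16 were higher in these lists, in that order, and 0 lower. Mt1, a metallothionein that binds zinc and copper, read 4.16 and 3.19 in 8-day culture, against -3.14 and -2.41 in E11.5 progenitors (log2 change 6.46 ± 0.37 SE, adjusted p = 0.000737). Cyp1b1, a cytochrome of the aryl hydrocarbon response, read 3.19 and 1.78 in 8-day culture, against -6.25 and -6.24 in E11.5 progenitors and was at least 104-fold higher (adjusted p = 0.000737). S100a6, a calcium-binding protein of growing cells, read 4.04 and 3.42 in 8-day culture, against -2.42 and -3.27 in E11.5 progenitors (log2 change 6.57 ± 0.64 SE, adjusted p = 0.00445). All 3 were separated without overlap and held without any 1 array. Nfe2l2, the oxidative stress factor NRF2, read 1.20 and 0.96 in 8-day culture, against -2.24 and -0.91 in E11.5 progenitors (log2 change 2.65 ± 0.46 SE, adjusted p = 0.0249) and was lost without 8-day culture replicate 1 or 8-day culture replicate 2 (highest adjusted p = 0.0919), and Txnrd1, one of its targets, read 3.20 and 3.57 in 8-day culture, against 3.93 and 3.17 in E11.5 progenitors (adjusted p = 0.827). Higher oxidative stress genes numbered 1 and 2 without 8-day culture replicates 1 and 2, and 3 and 4 without E11.5 progenitors replicates 1 and 2, and higher metallothionein and zinc genes numbered 1 and 3 without 8-day culture replicates 1 and 2, and 2 and 1 without E11.5 progenitors replicates 1 and 2.

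Of 29 DNA replication genes 3 were lower and 0 higher, with a median of -0.72, and of 28 mitosis genes 1 was lower and 0 higher. Mcm7, a subunit of the replicative helicase, read 4.75 and 4.47 in 8-day culture, against 5.82 and 6.15 in E11.5 progenitors (log2 change -1.37 ± 0.16 SE, adjusted p = 0.00750). Rrm2, of ribonucleotide reductase, read 3.47 and 3.54 in 8-day culture, against 5.08 and 4.96 in E11.5 progenitors (log2 change -1.51 ± 0.18 SE, adjusted p = 0.00840), and Mcm2 read 0.42 and 0.59 in 8-day culture, against 1.80 and 2.07 in E11.5 progenitors (log2 change -1.43 ± 0.25 SE, adjusted p = 0.0269). Culture lay below fresh cells without overlap for 20 of 29 replication genes and 16 of 28 mitosis genes, beside 21% of all genes. Bub1 (-1.80), a spindle checkpoint kinase, was the mitosis gene that passed, and it was lost without each of the 4 arrays in turn (highest adjusted p = 0.134), as was Mcm2 in each of the 4 fits. Birc5 read 5.21 and 5.02 in 8-day culture, against 5.72 and 5.62 in E11.5 progenitors (adjusted p = 0.114).

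Of 12 inhibitors of cyclin-dependent kinases and D cyclins 3 were higher and 1 lower. Cdkn2c, the p18 inhibitor, was at background in fresh cells, at 1.42 and 1.21 in 8-day culture, against -6.55 and -6.53 in E11.5 progenitors, and at least 46.4-fold higher (adjusted p = 0.00134). Cdkn1a, p21, read 0.07 and 0.87 in 8-day culture, against -3.22 and -6.05 in E11.5 progenitors (log2 change 5.11 ± 0.99 SE, adjusted p = 0.0341), with its probe well above background on 1 of the 2 fresh arrays. Cyclin D1, Ccnd1, was lower at -1.52 and -1.02 in 8-day culture, against 0.06 and 0.71 in E11.5 progenitors (log2 change -1.66 ± 0.29 SE, adjusted p = 0.0270). Cdkn2d passed with a change of 0.71. Of 20 p53 targets 3 were higher and 0 lower, namely Cdkn1a, the apoptosis gene Pmaip1 (6.88, well above background on 1 of the 2 fresh arrays) and the receptor Eda2r (at least 1.35-fold). With no filter on dim probes 1 of the 20 targets was higher and 0 lower. Trp53 itself read 2.93 and 2.87 in 8-day culture, against 3.49 and 3.40 in E11.5 progenitors (adjusted p = 0.211). Cdkn1a was lost without 8-day culture replicate 1, 8-day culture replicate 2 or E11.5 progenitors replicate 2 (highest adjusted p = 0.119), Ccnd1 without 8-day culture replicate 1 or E11.5 progenitors replicate 2 (highest adjusted p = 0.0928) and Pmaip1 without 8-day culture replicate 1 or 8-day culture replicate 2 (highest adjusted p = 0.141), and Cdkn2d and Eda2r in each of the 4 fits. Higher Cdk inhibitors and D cyclins numbered 1 and 1 without 8-day culture replicates 1 and 2, and 3 and 1 without E11.5 progenitors replicates 1 and 2, and higher p53 targets numbered 0 and 0 without 8-day culture replicates 1 and 2, and 2 and 3 without E11.5 progenitors replicates 1 and 2.

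Lin28 proteins block let-7 microRNAs and so keep a fetal set of genes on. Of 10 genes of that set 4 were lower and 0 higher, with a median of -1.09. Hmga2, a chromatin protein of early embryonic cells, read 2.46 and 3.07 in 8-day culture, against 4.87 and 4.78 in E11.5 progenitors (log2 change -2.06 ± 0.26 SE, adjusted p = 0.00941). Hmga1 read 4.80 and 4.40 in 8-day culture, against 5.66 and 5.77 in E11.5 progenitors (log2 change -1.11 ± 0.18 SE, adjusted p = 0.0223), and Lin28b was at least 5.31-fold lower (adjusted p = 0.0295), with levels of -6.01 and -4.44 in 8-day culture, against -2.24 and -1.34 in E11.5 progenitors. Igf2bp1, an RNA-binding protein, passed with them (-2.65). Hmga1 was lost without 8-day culture replicate 2, E11.5 progenitors replicate 1 or E11.5 progenitors replicate 2 (highest adjusted p = 0.0668), Lin28b without 8-day culture replicate 1, E11.5 progenitors replicate 1 or E11.5 progenitors replicate 2 (highest adjusted p = 0.0979) and Igf2bp1 without 8-day culture replicate 1, 8-day culture replicate 2 or E11.5 progenitors replicate 2 (highest adjusted p = 0.126). Lower genes of the set numbered 2 and 2 without 8-day culture replicates 1 and 2, and 2 and 1 without E11.5 progenitors replicates 1 and 2. Imprinted genes went both ways, 3 of 22 higher and 2 lower, with Peg3 at 2.11 and 2.66 in 8-day culture, against 4.43 and 4.31 in E11.5 progenitors (log2 change -1.99 ± 0.24 SE, adjusted p = 0.00894) and Plagl1 at 6.33 and 6.73 in 8-day culture, against 3.96 and 4.33 in E11.5 progenitors (log2 change 2.38 ± 0.35 SE, adjusted p = 0.0153). Plagl1 was lost without 8-day culture replicate 1, 8-day culture replicate 2 or E11.5 progenitors replicate 1 (highest adjusted p = 0.0625). Higher imprinted genes numbered 0 and 0 without 8-day culture replicates 1 and 2, and 1 and 1 without E11.5 progenitors replicates 1 and 2, and lower ones numbered 1 and 3 without 8-day culture replicates 1 and 2, and 1 and 1 without E11.5 progenitors replicates 1 and 2. H19 read 7.23 and 8.15 in 8-day culture, against 8.27 and 8.37 in E11.5 progenitors (adjusted p = 0.239) and Igf2 5.23 and 5.51 in 8-day culture, against 5.82 and 5.80 in E11.5 progenitors (adjusted p = 0.418).

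Of 17 Notch genes 1 was higher and 3 were lower. Notch1, a receptor, read 0.26 and 0.59 in 8-day culture, against -4.25 and -5.62 in E11.5 progenitors, at least 25.1-fold higher (adjusted p = 0.00343), from a probe not well above background in fresh cells, whereas the targets Hey1, at 0.67 and 0.29 in 8-day culture, against 3.05 and 3.43 in E11.5 progenitors (log2 change -2.76 ± 0.29 SE, adjusted p = 0.00529), and Heyl, at least 9.58-fold lower (adjusted p = 0.0345), and the endothelial receptor Notch4, at least 9.19-fold lower (adjusted p = 0.0102), fell. Heyl was lost without 8-day culture replicate 1 or 8-day culture replicate 2 (highest adjusted p = 0.110). Among 27 Wnt genes, the receptor Lgr5 (at least 6.37-fold higher, adjusted p = 0.0240) and the inhibitor Dkk2 (at least 14.98-fold higher, adjusted p = 0.0304) were higher, and the agonist Rspo3, at -2.80 and -3.26 in 8-day culture, against 2.13 and 1.80 in E11.5 progenitors, was lower (log2 change -4.99 ± 0.72 SE, adjusted p = 0.0152). Each of these 3 calls was lost in at least 3 of the 4 fits without 1 array. Wnt4, which starts nephron formation, read -0.23 and 1.15 in 8-day culture, against 1.07 and 2.45 in E11.5 progenitors (adjusted p = 0.276).

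Of 15 posterior Hox genes, which set position along the body axis, 1 was lower and 0 higher. Hoxb9 read -2.61 and -2.35 in 8-day culture, against 2.12 and 2.70 in E11.5 progenitors (log2 change -4.89 ± 0.62 SE, adjusted p = 0.00981) and was lost without 8-day culture replicate 1 (adjusted p = 0.0551), while Hoxa11, needed with its paralogs for kidney induction, read 4.42 and 3.91 in 8-day culture, against 3.5 and 4.2 in E11.5 progenitors (adjusted p = 0.666) and Hoxd11 4.22 and 3.18 in 8-day culture, against 3.99 and 5.24 in E11.5 progenitors (adjusted p = 0.320). Igfbp3, which binds insulin-like growth factors, was at least 28.5-fold higher (adjusted p = 0.0130), and with Igf2r it made 2 of 12 genes of that pathway that were higher. Igfbp3 was lost without 8-day culture replicate 1 or 8-day culture replicate 2 (highest adjusted p = 0.0581).

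Of 22 listed genes of skeletal muscle 16 were measured, 6 were higher and 0 lower, with a median of 2.05. All 22 were on the array, and a gene could pass the filter on dim probes through the cultured arrays alone. With no such filter 5 of 22 were higher and 0 lower, with a median of 1.37. With normexp background correction 7 of the 16 were higher, with a median of 1.02. Actc1, the actin of embryonic striated muscle, read 1.17 and 2.10 in 8-day culture, against -3.84 and -4.07 in E11.5 progenitors, at least 48.3-fold higher (adjusted p = 0.00184). Tnnt1, slow skeletal troponin T, read 2.04 and 3.00 in 8-day culture, against -2.55 and -2.50 in E11.5 progenitors (log2 change 5.05 ± 0.58 SE, adjusted p = 0.00741). Myl1, a myosin light chain, read 3.03 and 3.65 in 8-day culture, against -6.26 and -6.23 in E11.5 progenitors (adjusted p = 0.0282), from a probe not well above background in fresh cells. The mean level of the list was 0.02 and 0.58 on the 8-day arrays, against -2.71 and -2.34 on those of E11.5 progenitors, and 15 and 18 of the 22 were well above background in culture, against 12 and 14. The muscle regulator Myod1 read 2.12 and 2.43 in 8-day culture, against 1.88 and 1.75 in E11.5 progenitors (adjusted p = 0.239), and Mef2c, a partner of such regulators also used outside muscle, read 1.84 and 1.43 in 8-day culture, against -2.41 and -3.74 in E11.5 progenitors (log2 change 4.71 ± 0.46 SE, adjusted p = 0.00445). Actc1, Tnnt1 and Mef2c held without any 1 array, whereas Myl1, Myl4 and Tnnt2 were lost in each of the 4 fits and Tnnc1 without 8-day culture replicate 1, E11.5 progenitors replicate 1 or E11.5 progenitors replicate 2 (highest adjusted p = 0.0640). In fits without 1 array, the number of members called higher was 2 and 3 without 8-day culture replicates 1 and 2, and 2 and 2 without E11.5 progenitors replicates 1 and 2. The part of muscle cells in these values was not tested.

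Of 11 measured erythroid genes 6 were lower, all of them globins, and 0 higher, with a median of -3.42. The size of that median depended on signals near background. It was -1.18 with normexp background correction (4 lower) and -1.95 with a floor at the lowest signal well above background (5 lower). With no filter on dim probes it was -1.64 over 15 genes (5 lower). Hbb-y, an embryonic beta globin, read -2.12 and -4.08 in 8-day culture, against 5.51 and 3.87 in E11.5 progenitors (log2 change -7.80 ± 0.79 SE, adjusted p = 0.00464). Hba-x, embryonic zeta globin, was at least 35.9-fold lower (adjusted p = 0.00445). Alas2, of red cell haem synthesis, read -0.59 and -3.17 in 8-day culture, against -4.59 and -2.79 in E11.5 progenitors (adjusted p = 0.304), and the erythropoietin receptor Epor -3.87 and -2.22 in 8-day culture, against -2.88 and -1.20 in E11.5 progenitors (adjusted p = 0.502). Globin genes are near copies of one another and their probes may share signal. The list averaged -4.10 and -3.94 on the 8-day arrays, against 0.25 and -1.37 on those of E11.5 progenitors, which thus differed between themselves, and 6 and 6 of 15 genes on the array were well above background in culture, against 10 and 9. In the 4 fits that each lacked an array, the number of members called lower was 3 and 4 without 8-day culture replicates 1 and 2, and 4 and 8 without E11.5 progenitors replicates 1 and 2.

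Of 17 endothelial genes 0 passed in limma and 1 had an unadjusted p under 0.05, with a median of -0.02 and list means of -3.65 and -3.80 in culture, against -3.57 and -3.89 in E11.5 progenitors. Kdr, a defining vessel receptor, read 2.22 and 2.38 in 8-day culture, against 2.50 and 2.13 in E11.5 progenitors. Of 18 leukocyte genes Tyrobp alone was lower (at least 14.9-fold, adjusted p = 0.0169), and list means were -2.72 and -2.58 in culture, against -1.66 and -2.32 in E11.5 progenitors. The probes annotated to the leukocyte genes Itgam and Csf1r were flat over all groups and are not interpreted. Tyrobp was lost without 8-day culture replicate 1 or 8-day culture replicate 2 (highest adjusted p = 0.0713). Of 17 ureteric bud genes 0 passed in limma and 3 had an unadjusted p under 0.05, and of 14 loop and distal tubule genes 0 passed and 0 had one. Of 16 proximal tubule genes Lrp2, an endocytic receptor, was lower (adjusted p = 0.0226) and was lost without 8-day culture replicate 1 or 8-day culture replicate 2 (highest adjusted p = 0.0775). Of 14 podocyte genes Synpo, an actin-associated protein, was higher at -1.15 and -1.70 in 8-day culture, against -4.03 and -5.45 in E11.5 progenitors (log2 change 3.32 ± 0.52 SE, adjusted p = 0.0200), with its probe well above background on 1 of the 2 fresh arrays. It was lost without 8-day culture replicate 1 or 8-day culture replicate 2 (highest adjusted p = 0.0805). None of these lists held more than 1 called gene in either direction.

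Of 18 stromal and mural genes 3 were higher and 3 lower. Foxd1, which defines the cortical stroma that borders the cap, read -6.16 and -2.63 in 8-day culture, against 3.83 and 3.20 in E11.5 progenitors (log2 change -7.91 ± 1.25 SE, adjusted p = 0.0200), with no overlap, and was well above background on 1 of the 2 cultured arrays. It was lost without 8-day culture replicate 1 or E11.5 progenitors replicate 1 (highest adjusted p = 0.0641). Meis2 (-2.95) was lower with it, and the mesenchymal receptor Pdgfra (at least 2.00-fold, adjusted p = 0.0437) was higher along with Col3a1, which this list shares with the collagens. Pdgfra was lost without each of the 4 arrays in turn (highest adjusted p = 0.158) and within the first slide (adjusted p = 0.0810). Higher stromal genes numbered 1 and 1 without 8-day culture replicates 1 and 2, and 2 and 1 without E11.5 progenitors replicates 1 and 2, and lower ones numbered 1 and 2 without 8-day culture replicates 1 and 2, and 1 and 2 without E11.5 progenitors replicates 1 and 2. Rgs5, a pericyte gene, read 3.86 and 4.09 in 8-day culture, against 1.96 and -2.23 in E11.5 progenitors (adjusted p = 0.0894).

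**Figure D4:**
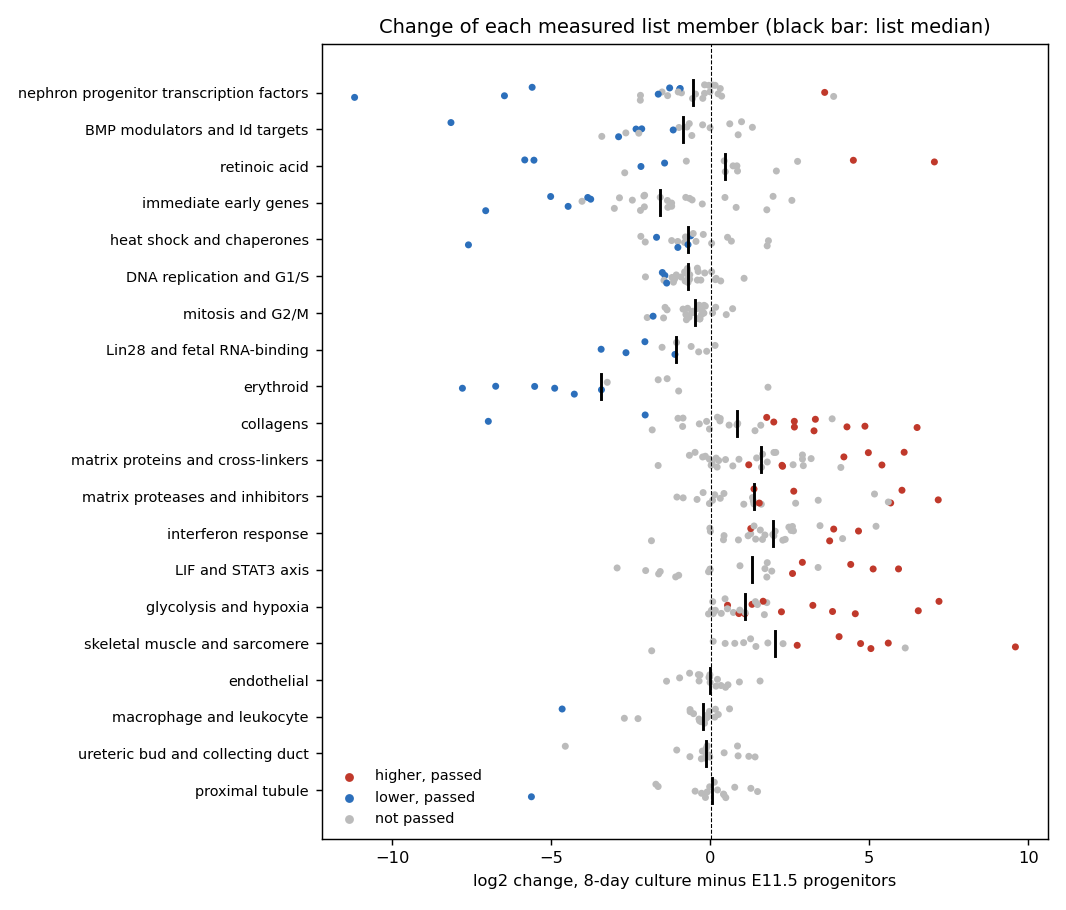
Log2 change (8-day culture minus E11.5 progenitors) of every measured member of 20 gene lists, red where higher and blue where lower at an adjusted p under 0.05, grey otherwise, with the list median as a black bar. Medians of the immediate early (-1.58) and erythroid (-3.42) lists lie left of 0, those of interferon (1.96) and muscle (2.05) genes right of it, and that of endothelial genes near it (-0.02). With normexp background correction, not drawn, they were -1.04 (immediate early), -1.18 (erythroid), 0.81 (interferon), 1.02 (muscle) and -0.14 (endothelial).

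Some of the largest changes fell outside these lists. Cavin1, which coats caveolae at the cell surface, read 5.19 and 5.19 in 8-day culture, against -0.47 and 1.13 in E11.5 progenitors (log2 change 4.86 ± 0.46 SE, adjusted p = 0.00415), and Adam15, a membrane metalloprotease, read 2.47 and 1.19 in 8-day culture, against -3.07 and -2.08 in E11.5 progenitors (log2 change 4.40 ± 0.52 SE, adjusted p = 0.00784). Ccn4, a secreted Wnt target, was at least 47.4-fold higher (adjusted p = 0.00504), and Abcc3, an export pump, read 2.45 and 1.21 in 8-day culture, against -2.86 and -2.89 in E11.5 progenitors (log2 change 4.71 ± 0.65 SE, adjusted p = 0.0134). Cldn11, a tight junction protein, was lower at -1.85 and -2.54 in 8-day culture, against 3.62 and 2.87 in E11.5 progenitors (log2 change -5.45 ± 0.37 SE, adjusted p = 0.00134), as were Cxxc4, a Wnt inhibitor, at -1.86 and -2.48 in 8-day culture, against 2.39 and 1.53 in E11.5 progenitors (log2 change -4.13 ± 0.43 SE, adjusted p = 0.00500), and Padi2, a peptidyl arginine deiminase (-4.23). Scube3, a secreted signalling modulator, read -2.31 and -0.43 in 8-day culture, against 3.17 and 3.23 in E11.5 progenitors (log2 change -4.57 ± 0.71 SE, adjusted p = 0.0189), and Unc5c, a netrin receptor, -0.65 and -3.71 in 8-day culture, against 1.82 and 2.33 in E11.5 progenitors (log2 change -4.25 ± 0.88 SE, adjusted p = 0.0408). Scube3 was lost without 8-day culture replicate 1, E11.5 progenitors replicate 1 or E11.5 progenitors replicate 2 (highest adjusted p = 0.0606), Unc5c without 8-day culture replicate 2, E11.5 progenitors replicate 1 or E11.5 progenitors replicate 2 (highest adjusted p = 0.112) and Abcc3 without 8-day culture replicate 1 (adjusted p = 0.0597).

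Of all 1261 calls, 320 were of changes under 1 log2 unit (167 higher, 153 lower) and 631 of changes over 4-fold. In 229 no probe of the gene was well above background in 1 of the groups, so its fold is a lower bound. Bounds given for named genes were instead judged by the tested probe alone. Among 153 named genes that passed, 65 kept their call when each of the 4 arrays was left out and 103 within the first slide.

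The same genes were then set beside longer culture. The contrasts of 8-day culture with E11.5 progenitors and of 19-day with 8-day culture share the 8-day arrays, so their values stand side by side and no overlap between them is read. In 19-day against 8-day culture 701 genes were higher (2.67%) and 1418 lower (5.4%), a split that depended on scaling, since quantile normalization gave 773 higher and 883 lower. Actc1 read -3.84 and -4.07 in E11.5 progenitors, 1.17 and 2.10 at 8 days and -6.61 and -6.59 at 19 days, and the 2 times of culture differed (at least 79.4-fold lower at 19 than at 8 days, adjusted p = 0.000948). Tnnt1 read -2.55 and -2.50 in E11.5 progenitors, 2.04 and 3.00 at 8 days and -0.67 and -1.25 at 19 days (log2 change -3.48 ± 0.58 SE, adjusted p = 0.0133), and Aldh1a3 -4.83 and -5.28 in E11.5 progenitors, 2.00 and 1.98 at 8 days and -3.48 and -2.43 at 19 days (log2 change -4.94 ± 0.42 SE, adjusted p = 0.00198). All 3 were highest at 8 days, and the muscle list had 0 members higher and 5 lower at 19 days than at 8 days.

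Fosb read 6.75 and 6.07 in E11.5 progenitors, -0.90 and -0.41 at 8 days and 6.96 and 3.91 at 19 days (log2 change 6.09 ± 0.84 SE, adjusted p = 0.00707). Ccn1 read 2.97 and 3.29 in E11.5 progenitors, -0.84 and -0.60 at 8 days and 5.61 and 4.36 at 19 days (log2 change 5.71 ± 0.47 SE, adjusted p = 0.00184), and Bmper 2.20 and 1.98 in E11.5 progenitors, -6.03 and -6.11 at 8 days and 3.75 and 1.25 at 19 days (at least 104-fold higher at 19 than at 8 days, adjusted p = 0.00198). All 3 were thus lowest at 8 days. Of the immediate early list 4 members were higher and 0 lower at 19 days than at 8 days.

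At 19 days 16 of 27 collagens were higher than at 8 days and 1 was lower, and 11 of 33 matrix proteins were higher and 1 lower. Col1a1 read -1.0 and -1.51 in E11.5 progenitors, 2.10 and 1.90 at 8 days and 6.37 and 5.64 at 19 days (log2 change 4.0 ± 0.36 SE, adjusted p = 0.00237). S100a6, from the S100 list, read -2.42 and -3.27 in E11.5 progenitors, 4.04 and 3.42 at 8 days and 8.43 and 8.55 at 19 days (log2 change 4.76 ± 0.64 SE, adjusted p = 0.00629). Six2 read 4.70 and 4.82 in E11.5 progenitors, 5.21 and 4.61 at 8 days and 1.06 and 2.32 at 19 days (log2 change -3.22 ± 0.71 SE, adjusted p = 0.0352), and Pax2 4.56 and 4.21 in E11.5 progenitors, -1.40 and -1.04 at 8 days and -1.25 and -1.21 at 19 days (log2 change -0.01 ± 0.23 SE, adjusted p = 0.987).

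**Figure D5:**
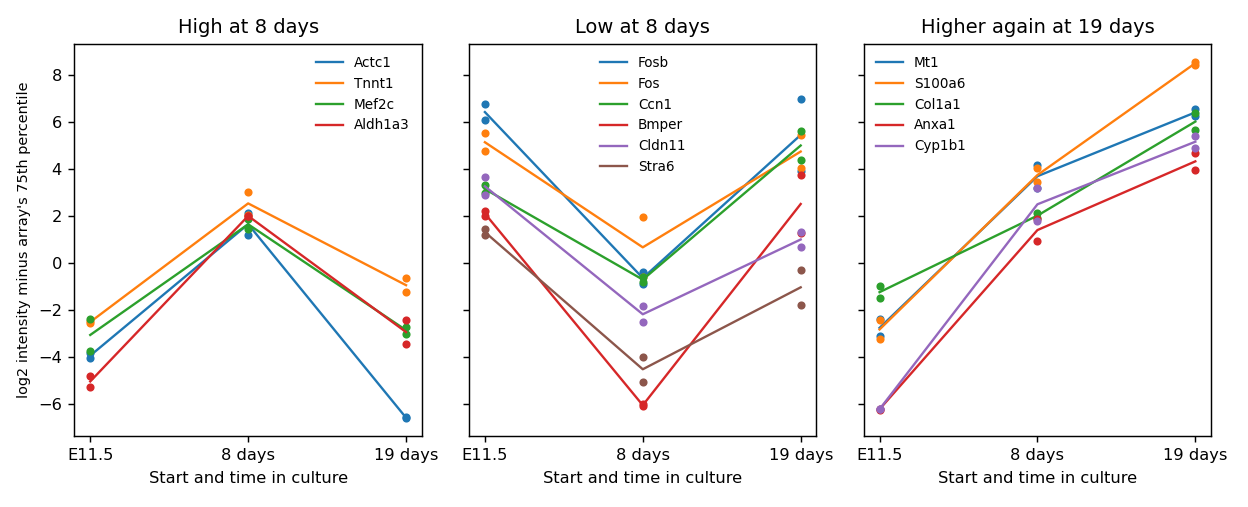
Levels (log2 intensity minus the array's 75th percentile) of selected genes in E11.5 progenitors, 8-day and 19-day culture, evenly spaced along the horizontal axis, with each array as a point and lines through group means. Actc1, Tnnt1, Mef2c and Aldh1a3 are highest at 8 days, Fosb, Fos, Ccn1, Bmper, Cldn11 and Stra6 lowest at 8 days, and Mt1, S100a6, Col1a1, Anxa1 and Cyp1b1 higher again at 19 days.

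Cultured cells were also set beside progenitors that had aged in the embryo. Against P0 progenitors, 632 genes were higher (2.41%) and 411 lower (1.57%) in 8-day culture, in a contrast that also shares the 8-day arrays. Quantile normalization gave 386 higher and 483 lower. Of the 27 glycolysis and hypoxia genes 19 were higher and 0 lower than at P0, with a median log2 change of 2.19. Ldha, which did not pass against E11.5 progenitors, read 7.33 and 7.14 in 8-day culture and 5.16 and 5.15 in P0 progenitors (log2 change 2.08, adjusted p = 0.000469), and Pgk1 7.09 and 7.35 in 8-day culture and 4.86 and 5.13 in P0 progenitors (log2 change 2.22, adjusted p = 0.000472). Of cholesterol and fatty acid synthesis genes 9 were higher than at P0 and 0 lower. Pax2 read -1.40 and -1.04 in culture and 5.2 and 5.2 in P0 progenitors (log2 change -6.42, adjusted p = 0.000169), and Cited1 0.56 and 1.68 in culture and 6.03 and 5.53 in P0 progenitors (log2 change -4.66, adjusted p = 0.00726). Loop and distal tubule genes, of which 0 passed against E11.5 progenitors, were lower than at P0 in 6 of 14 and higher in 0.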

How the data were processed

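Agilent mouse arrays with 1 dye were hybridised with RNA of 10 samples (5 groups, 2 arrays each). The deposited values are spot intensities from Agilent Feature Extraction 11.5.1.1, background-subtracted and with mm9 probe positions per the file headers. Control spots (leaving 59305) and outlier-flagged spots were left out, spots of a probe were averaged, and log2 intensity was centred on the array's 75th percentile, which was 220.4 to 340.6. No spot was saturated, and 60.4% to 69.8% of spots were well above background. The array file of P0 progenitors replicate 2 held rounded values and 62 altered gene names, which were taken from another array. Of 55681 probes, 28026 were named through RefSeq by accession, 3418 by symbol and 295 by synonym, and 23942 kept the array's name. The probe of highest mean stood for a gene. A gene was tested if the scanner called any 1 of its probes well above background on both arrays of 1 or more groups. This held for 26253 of 34607 names (17379 of them RefSeq symbols). The probe that stood for a tested gene could itself be dim.

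Group means were fitted on all 10 arrays with limma 3.58.1 (lmFit, eBayes with an intensity trend) in R 4.3.3, with data.table (version 1.17.8), giving 5 residual and 2.49 prior degrees of freedom, and two-sided p-values were adjusted by Benjamini-Hochberg at 0.05. The fit was tested on simulated data. Where the tested probe of a named gene was well above background on neither array of a group, the fold is given as a bound. It is at least the ratio of the brighter group's mean to the dim group's mean. Each dim array is set at its lowest signal well above background or the probe's own signal, if higher. Array replicate numbers did not pair samples, with correlations of deviations between -0.0137 and 0.0285.

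Members and lists were chosen with earlier results of these data known. Genes were named by a rule: the 15 largest rises and falls among called, bright and separated genes, the 8 highest and 8 lowest bounds, up to 6 called and 4 uncalled members of each of the lists, and a set of progenitor genes. Alternatives covered the scaling, background correction, dim-probe filter, floor, probe choice, moderation, replicate and slide blocks, the arrays in the fit, the threshold and each array left out. Some lists were described in the text by count alone or not at all, and arrays of P0 non-progenitors entered the fits and, for 1 family, the closing values only. Some genes counted in the lists are not reported here by name.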

Additional observations from a re-analysis of the deposited data

Results flagged for a closer look

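For 10 named genes the change between 8-day culture and E11.5 progenitors and the change between 19-day and 8-day culture both passed and had opposite signs. The second change was tested in the same limma fit (n = 2 arrays each), and both use the 8-day arrays. The 8-day mean enters the 2 changes with opposite signs, so error in it pushes them apart. These genes were also chosen by that pattern. Their number is therefore not read as a result, and the share of all genes with the pattern was not counted. The first value given is the log2 change at 8 days, or a bound where 1 group was not well above background. Where the bound stands beside the later change, the fitted value rests on signal at background in 1 of the groups and only the bound holds.

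Actc1, the actin of striated muscle, was higher at 8 days (at least 48.3-fold) and lower at 19 days than at 8 days (fitted log2 change -8.24, at least 79.4-fold, adjusted p = 0.000948). Tnnt1, slow troponin T, showed the same order (5.05, then log2 change -3.48, adjusted p = 0.0133), as did Mef2c, a muscle co-regulator (4.71, then log2 change -4.51, adjusted p = 0.00320), and Aldh1a3, a retinaldehyde dehydrogenase (at least 74.0-fold, then log2 change -4.94, adjusted p = 0.00198).

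Bmper, a BMP-binding protein, was lower at 8 days (at least 78.0-fold) and higher at 19 days than at 8 days (fitted log2 change 8.57, at least 104-fold, adjusted p = 0.00198). The AP-1 subunits Fosb (-7.06, then log2 change 6.09, adjusted p = 0.00707) and Fos (-4.47, then log2 change 4.08, adjusted p = 0.0223) took that order too. So did the inducible Hsp70 gene Hspa1a (at least 69.1-fold, then fitted log2 change 3.58, at least 4.23-fold, adjusted p = 0.0387), the tight junction gene Cldn11 (-5.45, then log2 change 3.18, adjusted p = 0.00446) and the retinol receptor Stra6 (at least 44.6-fold, then fitted log2 change 3.49, at least 8.75-fold, adjusted p = 0.0107). With slide as a block the changes kept their signs in both contrasts, with Fos at -3.20 at 8 days. Only 8-day culture had arrays on both slides, so that block in effect leaves out 1 of its arrays. It is no separate adjustment for slide.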

How the results depend on the processing

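For 8-day culture against E11.5 progenitors (1261 calls), 540 genes passed without an intensity trend, 631 with slide as a block, 683 within the first slide, 144 against a change of at least 1 log2 unit and 0 with the 4 arrays alone in limma (3950 at an unadjusted p under 0.05). Without the P0 non-progenitor arrays, an alternative chosen after seeing the data, 761 passed. Against E11.5 or P0 progenitors, the slide block and the first slide both rest on 8-day culture replicate 1. Neither is thus a check of slide apart from leaving out its replicate 2. With 1 array left out 368 to 887 passed, namely 368 without 8-day culture replicate 1, 629 without its replicate 2, 715 without E11.5 progenitors replicate 1 and 887 without its replicate 2, each lone array being assumed to vary like the other groups. The other alternatives gave 983 (no filter on dim probes) to 1229 (robust moderation), with 1198 after quantile normalization and 1046 with the replicate block, although replicate numbers did not pair the samples. The direction of 152 of the 153 named calls held under every alternative that gave a value, Tpm1 being the exception.

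For 19-day against 8-day culture (2119 calls), 760 passed without an intensity trend, 157 against a change of at least 1 log2 unit and 0 with the 4 arrays alone in limma (4987 at an unadjusted p under 0.05), and a fit within the first slide was not possible, since both 19-day arrays lie on the second. With 1 array left out 827 (8-day culture replicate 2) to 1763 (19-day culture replicate 2) passed, with 916 without 19-day culture replicate 1. For 8-day culture against P0 progenitors (1043 calls), 491 passed without an intensity trend, 483 with slide as a block, 465 within the first slide, 341 with the 4 arrays alone and 137 against a change of at least 1 log2 unit. With 1 array left out 124 (P0 progenitors replicate 2) to 482 (8-day culture replicate 2) passed, with 125 without P0 progenitors replicate 1 and 405 without 8-day culture replicate 1. After quantile normalization the share of calls that were higher was 46.7% instead of 33.1% at 19 against 8 days, and 44.4% instead of 60.6% against P0 progenitors.

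Averaging all probes of a gene turned the sign of Fgfr1 (log2 change -1.69 against E11.5 progenitors, adjusted p = 0.0169, and -1.67 against P0 progenitors, adjusted p = 0.0158), of Tpm1 (-0.094, adjusted p = 0.93) and, at 19 against 8 days, of Elavl4 (-1.66, adjusted p = 0.0232). With genes well above background on all 10 arrays, Spsb4 was 0.58 against P0 progenitors (adjusted p = 0.602). The cause was not tested for any of these. Signals near background limit the precision of the 229 calls with no probe well above background in 1 group, and 2 arrays a group limit all calls.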

Other observations

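Genes of cytosolic ribosomal proteins are a family picked out after its values were seen. Of 76 tested, 26 were higher in 8-day culture and 0 lower, beside 2.76% of all genes higher, and 75 had a positive log2 change, with a range of -0.05 to 0.79 and a median of 0.37, against 0.02 over all genes. The median level of the family was 7.22 and 7.37 on the arrays of 8-day culture, against 6.96 and 6.99 on those of E11.5 progenitors. It was 6.60 and 6.68 in 19-day culture, 7.04 and 7.003 in P0 progenitors and 6.42 and 6.39 in P0 non-progenitors. After quantile normalization 25 were higher, with a median of 0.33, and 31 were after normexp correction. With slide as a block 5 were higher, within the first slide 8, and with 1 array left out 5 to 8. Without an intensity trend, and with the 4 arrays alone, 0 passed in limma. None was lower under any alternative.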
